A study of Homo sapiens with 2 samples.

Results

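The BTB zinc finger genes encode transcription factors that carry a BTB fold near one end and zinc fingers that contact DNA near the other. Members were taken from the array's platform annotation: every gene whose symbol is ZBTB followed by a digit, together with BCL6, BCL6B, PATZ1, HIC1 and HIC2, each through probe sets with exactly 1 gene symbol. This gave 53 of the 19775 genes on the array, measured by 126 probe sets. The brightest probe set stood for each gene, and the gene counted as detected when its 2 array values averaged above 0.92 (log2), the midpoint of such averages over the array's probe sets. By this rule 42 of the 53 were detected, against 13150 of all 19775 genes. The name rule also takes in 7 genes that do not encode BTB zinc finger proteins: ZBTB8OS, which encodes a cofactor of the tRNA ligase, and 6 antisense or divergent noncoding genes. Without them the family counts 46 genes, 40 of them detected. The probe set of each member and its detection status were chosen by its level on the same arrays, and the miR-941 minus control differences were known when the family was picked, so the values below are a description of these arrays and no test accompanies them.

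The arrays come from 293T, a human embryonic kidney line that carries the SV40 large T antigen, and hold RNA recovered by immunoprecipitation. Cells of the miR-941 group received synthetic miR-941 at 30 nmol/l and were precipitated through Ago2, an Argonaute protein, which carries microRNAs to their target mRNAs. Cells of the control group received a scrambled oligonucleotide at the same concentration. The control sample is titled an Ago2 precipitate, but its antibody field lists nonimmune IgG beads. If that field is right, effects of the antibody and of the transfected oligonucleotide cannot be told apart. Each group has 1 array, so a difference compares 2 arrays and has no replicate check. No array of total or input RNA was analysed here, so recovery in the precipitate and the amount of an mRNA in the cell cannot be told apart either.

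In BTB zinc finger proteins the BTB fold joins a pair of protein copies and recruits corepressors such as BCOR, while the zinc fingers choose the DNA sites. Most of the well-studied members act as repressors of transcription. Several are best known in blood cells (BCL6 in germinal centre B cells, ZBTB7B in helper T cells, ZBTB16 in natural killer T cells), others bind methylated DNA (ZBTB33, also called Kaiso) or restrain growth (HIC1). A microRNA guides Argonaute chiefly through its seed, bases 2 to 8, which pairs with a complementary stretch of the target mRNA. An mRNA held by Ago2 through an added microRNA would be recovered in larger amounts, which is the question such a precipitate addresses.

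The microRNA that was added is shown because its seed is the only part of the design that names a target sequence. Its mature form in RefSeq (GRCh38.p14) is given 5′ to 3′ with the seed in capitals.
hsa-miR-941: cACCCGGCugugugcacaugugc
The same mature sequence of 23 bases is listed at 5 loci on chromosome 20, the first of them at chr20:63919495-63919517 on the plus strand. None of the other mature human microRNAs in the table, which holds 2370 names in all, has the same bases at positions 2 to 8. The site complementary to this seed reads GCCGGGU. In DNA letters, GCCGGGT, it was searched on the sense strand of the first 50 bases after the RefSeq start sites, the only transcribed sequence used here. It was found there in 0 of the 43 family genes with a promoter entry and in 247 of 27305 genes of the table (0.905%). That says only that these letters are not in this window. Coding sequences and UTRs were not analysed here, so members with and without a seed site were not compared.

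Over all 54675 probe sets the array medians were 0.92 (control) and 0.98 (miR-941). Of the 8 genes taken as markers of the 293T line, 7 were detected, among them VIM at 8.82 (control) and 8.70 (miR-941). KRT8 was not. Of 10 leukocyte markers with a probe set of 1 symbol, 4 passed the detection level, their means over both arrays ran from 0.41 to 1.83, and their summed log2 values were 8.44 (control) and 9.28 (miR-941). The 4 that passed were CD79A (mean 1.00), CD4 (1.05), CD8A (1.52) and ITGAX (1.83). PTPRC and MS4A1, defining markers of white cells and of B cells, were below the level on both arrays. Among liver and fibroblast markers 1 of 2 each passed it, and the single red cell gene with a value, HBB, read 6.95 and 7.54. The control probe set at the 5′ end of the ACTB mRNA differed by -0.66 (miR-941 minus control, log2). That at its 3′ end differed by -0.04. For the GAPDH mRNA the 5′ control probe set differed by -0.19 and that at the 3′ end by 0.05. The part of the leukocyte values or of these end differences in the family's values was not tested.

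On their brightest probe sets, most detected BTB zinc finger genes had lower values after miR-941 than in the control. Of the 42 detected members 28 were lower, 10 were higher and 4 were equal, while over all 13150 detected genes 42.4% were lower and 46.3% higher. The median difference of the members was -0.19 (log2, miR-941 minus control), with an interquartile range from -0.32 to 0.00, and the median of all detected genes was 0.00. The differences were small: no member reached 2-fold, which 0.289% of all detected genes did on the lower side and 0.228% on the higher side. At 1.5-fold or more 4 members were lower (ZBTB49, ZBTB22, PATZ1 and ZBTB1), beside a background of 2.87%, and 1 was higher (ZBTB7C), beside 2.94%. The 40 detected genes that encode BTB zinc finger proteins gave 27 lower, 9 higher and 4 equal, with the same median of -0.19.

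**Figure D1:**
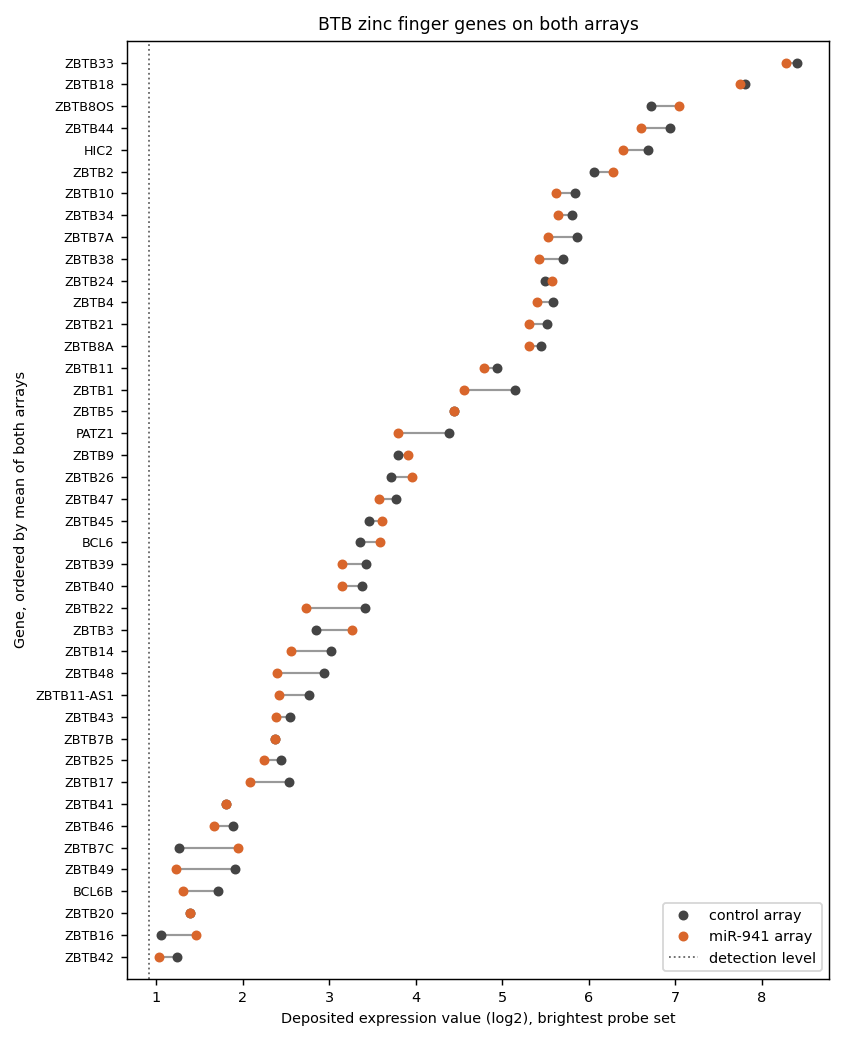
Deposited log2 values of the 42 detected BTB zinc finger genes on the control array (dark points) and the miR-941 array (orange points), 1 brightest probe set a gene, ordered by the mean of both; the dotted line is the detection level of 0.92. The orange point lies left of the dark one for 28 genes and right of it for 10, and the widest gaps are 0.68. The order reflects probe brightness and does not compare mRNA amounts between genes.

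On the brightest probe set of each gene, lower members outnumbered higher ones among brighter and dimmer members alike. Of the 21 members above the family's median level of 3.60, 15 were lower and 5 higher, with a median of -0.16. Of the 21 at or under it, 13 were lower and 5 higher, with a median of -0.21. For all detected genes the median was 0.00 on both sides of the same level, and 46.3% of the 7794 brighter ones and 36.6% of the 5356 dimmer ones were lower. The members nearest the detection level were ZBTB42, with a mean of 1.14, and ZBTB16 (1.25) inside it, and HIC1 (0.87) and ZBTB12 (0.86) outside it.

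**Figure D2:**
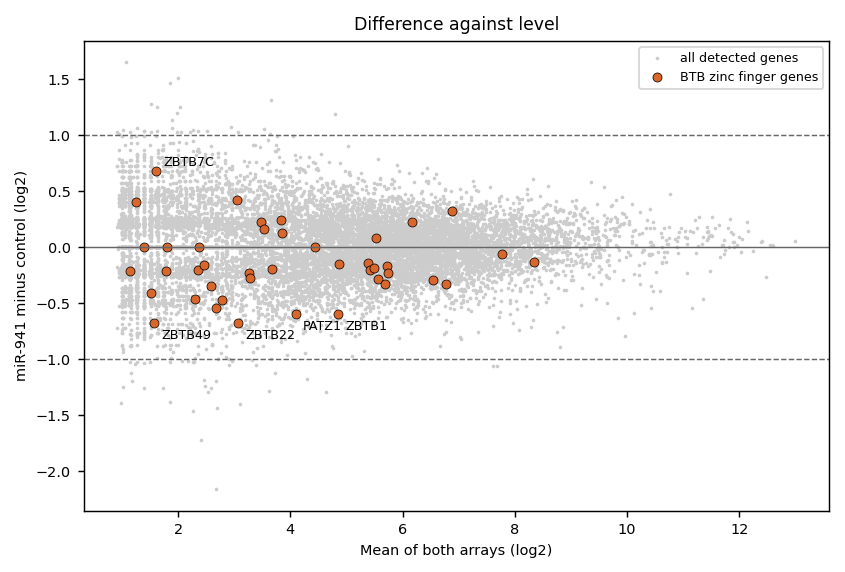
Difference between the arrays (log2, miR-941 minus control) against the mean of both arrays (log2) for all 13150 detected genes (grey) and the 42 detected BTB zinc finger genes (orange); dashed lines mark 2-fold. The members lie mostly below 0 at all levels, none lies beyond a dashed line, and the 5 past 1.5-fold are named.

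Members known from blood and immune lineages were detected in 8 of 9 cases. On the brightest probe sets 5 were lower, 2 higher and 1 equal, with a median of -0.27. The median over all detected probe sets of a gene was lower for ZBTB1 (-0.59), ZBTB7A (-0.33) and ZBTB46 (-0.28) and 0.00 for PATZ1. It was higher for ZBTB7B (0.13), BCL6 (0.23), ZBTB16 (0.40) and BCL6B (0.45), so the group's direction rests on the brightest probe sets. PATZ1, which regulates the CD8 genes in thymocytes, read 4.39 (control) and 3.79 (miR-941), a difference of -0.60. Its second probe set went the other way (3.82 and 4.04), and the 2 remaining detected ones were equal, so the median over its 4 detected probe sets was 0.00. ZBTB1, which lymphocyte development requires, read 5.15 and 4.55 (-0.59) on its only detected probe set. Both genes were thus 1.51-fold lower on the brightest probe set, and only for ZBTB1 did no other detected probe set disagree, since it has none. ZBTB7A, a repressor of the fetal globin genes also called LRF, read 5.86 and 5.53 (-0.33), with a second probe set at -0.45 and another, near the detection level, at 0.50. BCL6, the repressor that sustains germinal centre B cells, read 3.36 and 3.59 (0.23). Its paralog BCL6B read 1.72 and 1.31 (-0.41), while its other detected probe set read 0.48 and 1.79 (1.30), the largest difference of any detected probe set in the family. The BCL6B probe sets therefore give no direction. ZBTB46, a factor of classical dendritic cells, read 1.88 and 1.67 (-0.21), and its second probe set was also lower (-0.35). ZBTB16, also called PLZF, read 1.05 and 1.46 (0.40). ZBTB7B, which directs helper T cell fate and is also called ThPOK, read 2.38 on both arrays, and its second probe set read 1.77 and 2.03 (0.26). Equal values on both arrays were held by 8163 probe sets with 1 symbol and do not show an unchanged mRNA. ZBTB32, a repressor found in activated lymphocytes, was below the detection level.

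All 4 members that bind methylated DNA or maintain its methylation were detected, and 3 of them were lower, with a median of -0.16. ZBTB33, Kaiso, has the brightest probe set of the family and read 8.41 (control) and 8.28 (miR-941) (-0.13). Its relatives ZBTB4 and ZBTB38, which share its affinity for methylated CpG, read 5.58 and 5.40 (-0.19) and 5.71 and 5.42 (-0.28). Both ZBTB4 probe sets were lower, at -0.19 and -0.24. Of the 4 detected ZBTB38 probe sets 3 were lower and 1, the dimmest, was higher by 0.26. ZBTB24, which is mutated in a syndrome with lost centromeric methylation, read 5.49 and 5.57 (0.08). Its dimmer probe sets lay on both sides, at -0.47 and 0.73.

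Members that restrain or steer growth were split, with 2 lower, 2 higher and 1 equal among 5 detected of 6, and a median of 0.00. HIC2, the paralog of the tumour suppressor HIC1, read 6.69 (control) and 6.40 (miR-941) (-0.29), but its other 3 probe sets were higher (0.04, 0.18 and 0.52), so its median was 0.11. HIC1 itself read 0.87 on both arrays, under the detection level, which does not show an unchanged mRNA. ZBTB17, the MYC partner also called MIZ-1, read 2.54 and 2.08 (-0.46), with a second probe set near the detection level at 0.26. ZBTB2 and ZBTB5 both repress the cell cycle inhibitor gene CDKN1A. ZBTB2 read 6.06 and 6.28 (0.23), and ZBTB5 read 4.44 on both. ZBTB7C, a close relative of ZBTB7A and ZBTB7B, had the largest difference on the higher side, 1.27 and 1.95 (0.68), on a dim probe set and its only detected one.

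Of 4 members studied in the nervous system and in differentiation, 2 were lower, 1 was higher and 1 was equal, with a median of -0.03. ZBTB18, a repressor in developing cortical neurons also called RP58, read 7.81 (control) and 7.75 (miR-941) (-0.06). Among the 5 members with the brightest probe sets it had the smallest difference. ZBTB14 read 3.02 and 2.55 (-0.47), but its second probe set was higher by 0.47, so the pair cancel. ZBTB45 read 3.45 and 3.61 (0.16). ZBTB20, a repressor of the alpha-fetoprotein gene in liver and a factor of hippocampal neurons, has 12 probe sets, of which 2 were detected: one read 1.39 on both arrays and the other 1.25 and 0.74 (-0.52). The telomere binders ZBTB48, also called TZAP, and ZBTB10 were both lower. ZBTB48 read 2.94 and 2.40 (-0.55) on its only probe set. ZBTB10 read 5.85 and 5.62 (-0.23), and its 5 detected probe sets held 2 lower, 1 higher and 2 equal values.

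The 17 other detected BTB zinc finger genes, whose roles are less well described and which were placed in no role group, held 13 lower, 3 higher and 1 equal value, with a median of -0.19. ZBTB49 read 1.90 (control) and 1.23 (miR-941) (-0.68) on a single, dim probe set. ZBTB22, which lies near the major histocompatibility complex, read 3.41 and 2.73 (-0.68), also on a single probe set. These were the lowest differences of the family, 1.60-fold lower in both. Of the members with at least 3 detected probe sets, only ZBTB43 had them all on the same side of 0: the brightest read 2.55 and 2.39 (-0.16), and the median of its 4 detected probe sets was -0.30 ± 0.22 (SD, n = 4 probe sets, which share 1 hybridisation per array and are not replicates). All 4 of these ZBTB43 probe sets carry the suffix _s_at or _x_at, so the gene has no value when such probe sets are left out. ZBTB44, with one of the 5 brightest probe sets, read 6.93 and 6.61 (-0.32). Its next 2 probe sets were lower by more, -0.50 and -0.52, and another, dim one was higher by 0.12, giving a median of -0.41. On the higher side ZBTB3 read 2.84 and 3.26 (0.42), ZBTB26 3.71 and 3.95 (0.24) and ZBTB9 3.79 and 3.91 (0.13). The remaining lower members of this group ran from -0.27 (ZBTB39) through -0.23 (ZBTB40), -0.21 (ZBTB21 and ZBTB42), -0.20 (ZBTB25), -0.19 (ZBTB47), -0.16 (ZBTB34) and -0.15 (ZBTB11) to -0.14 (ZBTB8A), and ZBTB41 read 1.81 on both arrays. The second probe set of ZBTB40 was higher by 0.47 and that of ZBTB21 by 0.12, so their probe sets disagree in direction. ZBTB6, ZBTB8B, ZBTB12 and ZBTB37 were not detected.

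Of the 7 genes that share only the name, ZBTB8OS and ZBTB11-AS1 were detected. ZBTB8OS read 6.72 (control) and 7.04 (miR-941) (0.33), one of the 5 brightest probe sets of the members, and opposite in direction to ZBTB8A, its neighbour by name. ZBTB11-AS1, a noncoding gene antisense to ZBTB11, read 2.76 and 2.41 (-0.35), and its second probe set was also lower (-0.19). The noncoding genes below the detection level were ZBTB7C-AS2, ZBTB20-AS1, ZBTB44-DT, ZBTB46-AS1 and ZBTB47-AS1.

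The lower values were more frequent on the brightest probe sets than on the other detected probe sets of the same genes. In the 20 members with 2 or more detected probe sets the brightest was lower in 16, higher in 2 and equal in 2, with a median of -0.23. The second brightest of the same 20 was lower in 10, higher in 8 and equal in 2, with a median of -0.07. Over the 6106 genes with 2 detected probe sets, 46.2% of the brightest and 45.2% of the second brightest were lower. Taking all 36 detected member probe sets other than the brightest, 15 were lower, 15 higher and 6 equal, with a median of 0.00. All detected probe sets were lower in 4 of the 20 members (ZBTB4, ZBTB43, ZBTB46 and ZBTB11-AS1) and higher in none, where 17.1% of all such genes were lower on all probe sets and 16.5% higher on all. The 22 members with a single detected probe set held 12 lower, 8 higher and 2 equal values, with a median of -0.10. The 2 brightest probe sets of a member differed with a within-gene SD of 0.41 over 20 members (0.32 without BCL6B), compared with 0.29 over all 6106 genes.

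**Figure D3:**
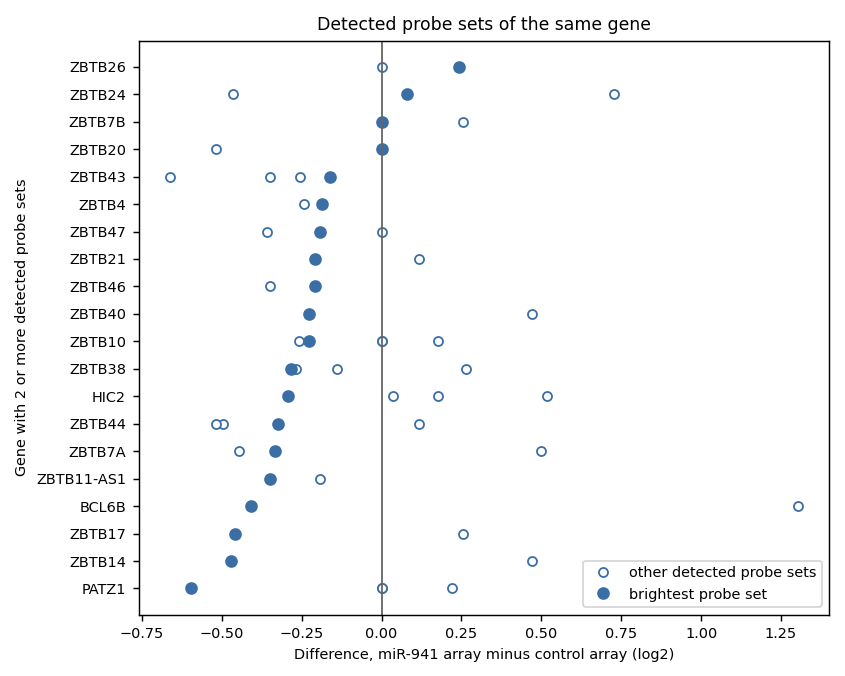
Difference (log2, miR-941 minus control) of each detected probe set of the 20 members with 2 or more of them; filled points are the brightest probe set of a gene and open points the others. Filled points lie left of 0 for 16 genes, while open points lie on both sides, out to 1.30 for BCL6B.

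Differences between the arrays often recur exactly across probe sets. ZBTB49 and ZBTB7C differ by exactly the same size in opposite directions, and 167 probe sets with 1 symbol hold that size to 6 decimals. ZBTB10 and ZBTB40 likewise share their difference, a size held by 188 probe sets. ZBTB11-AS1 and a dimmer probe set each of ZBTB43 and ZBTB46 all differ by -0.35, a size held by 87. Of the 38 members with unequal values, 7 (18.4%) had a size held by 100 or more probe sets, compared with 22.0% of all detected genes with unequal values. Another 28 had a size held by 2 to 99 probe sets, and only 3 had a size that no other probe set held. Without the 7 members past that limit and the equal ones, 23 of 31 members were lower and 8 higher, with a median of -0.19. Of 9101 genes so chosen, 48.2% were lower.

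Several members share a start region with a neighbour, and these pairs are shown because their values can be read side by side. RefSeq windows from 250 bases before to 50 bases after a start were listed for 43 of the 53 members. A start on the other strand within 1000 bases was found for 14 of them, and in 5 such pairs both genes were detected. In 3 pairs both genes were lower: ZBTB1 (-0.59) with ZBTB25 (-0.20), ZBTB11 (-0.15) with ZBTB11-AS1 (-0.35), and ZBTB49 (-0.68) with LYAR (-0.22), which encodes a nucleolar protein and read 8.24 (control) and 8.02 (miR-941). In the others the genes differed in direction: ZBTB4 (-0.19) with POLR2A (0.07), which encodes the largest subunit of RNA polymerase II, and ZBTB8OS (0.33) with the histone-binding protein gene RBBP4 (-0.09). In an undetected pair member, ZBTB37, the neighbour is the noncoding gene GAS5, which read 1.89 and 2.63. Of the pairs with both genes detected, the 3 whose starts lie closest are printed from RefSeq (GRCh38.p14), 5′ to 3′ on the strand of the named member, with the bases from one start to the other in capitals. ZBTB1 is at chr14:64503637-64503936 (plus strand), with 49 bases between its start and that of ZBTB25. ZBTB49 is at chr4:4290001-4290300 (plus strand), with 97 bases to the start of LYAR. ZBTB4 is at chr17:7484200-7484499 (minus strand), with 117 bases to the start of POLR2A.
ZBTB1: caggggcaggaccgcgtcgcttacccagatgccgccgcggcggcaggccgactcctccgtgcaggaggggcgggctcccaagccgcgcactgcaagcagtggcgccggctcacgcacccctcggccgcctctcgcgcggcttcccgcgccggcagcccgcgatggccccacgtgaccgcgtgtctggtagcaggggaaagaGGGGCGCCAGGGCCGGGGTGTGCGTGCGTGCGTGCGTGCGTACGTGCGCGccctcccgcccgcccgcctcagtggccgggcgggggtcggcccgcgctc
ZBTB49: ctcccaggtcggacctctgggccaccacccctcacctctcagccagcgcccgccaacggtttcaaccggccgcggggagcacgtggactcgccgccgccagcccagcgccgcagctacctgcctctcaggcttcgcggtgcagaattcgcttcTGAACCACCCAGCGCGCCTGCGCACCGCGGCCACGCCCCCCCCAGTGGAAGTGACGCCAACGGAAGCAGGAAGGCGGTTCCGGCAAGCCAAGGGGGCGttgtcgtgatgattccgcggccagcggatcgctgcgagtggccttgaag
ZBTB4: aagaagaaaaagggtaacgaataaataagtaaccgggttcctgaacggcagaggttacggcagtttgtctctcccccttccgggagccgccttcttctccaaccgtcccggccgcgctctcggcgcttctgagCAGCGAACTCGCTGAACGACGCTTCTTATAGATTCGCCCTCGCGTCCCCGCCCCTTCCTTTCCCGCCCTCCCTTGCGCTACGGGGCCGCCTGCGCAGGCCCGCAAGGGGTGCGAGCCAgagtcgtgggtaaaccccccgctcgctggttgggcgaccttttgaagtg
All 3 windows are rich in G and C (78.0% for ZBTB1, 69.7% for ZBTB49 and 62.0% for ZBTB4). The start sites are those of the annotation and were not measured on these arrays.

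The genes of the proteins that BTB zinc finger factors work with were more evenly divided. Of 25 such genes with a probe set of 1 symbol 23 were detected, 12 lower, 9 higher and 2 equal, with a median of -0.0074. BCOR, the corepressor bound by the BTB fold of BCL6, read 6.55 (control) and 6.17 (miR-941) (-0.38) and was lower on both detected probe sets. SIN3A, the scaffold of a histone deacetylase complex, had -0.27, and HDAC1 and HDAC3, the deacetylases themselves, had 0.16 and 0.18. HDAC4 was lowest at -0.71, although its second probe set read higher, and PCGF1 and MTA1 were highest at 0.57 and 0.36, each with a probe set on the other side. CUL3, the ubiquitin ligase scaffold that takes up BTB proteins as adaptors, had -0.22 on the brighter of 2 probe sets that differed in direction.

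Genes named for families that carry only 1 of the 2 folds were also more evenly divided. Both lists were taken by symbol, and that of ZNF genes includes pseudogenes such as ZNF204P and ZNF271P. BTB adaptor genes (KLHL, KBTBD and BTBD symbols), whose BTB fold serves ubiquitin ligases, held 19 lower, 16 higher and 7 equal values among 42 detected of 54, with a median of 0.00. They ran from BTBD9 (-1.29) and KLHL3 (-0.91) to BTBD2 (0.60) and KLHL14 (0.73). Of the 3 detected BTBD9 probe sets 1 was higher, and their median was -0.23. ZNF genes without a BTB fold held 189 lower, 135 higher and 30 equal values among 354 detected of 466, 53.4% lower, with a median of -0.08. BTB zinc finger genes had 66.7% lower beside these. No test of the difference between the lists was possible with 1 array a group, so the lists stand side by side and the excess of lower values is not called particular to the BTB zinc finger genes.

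**Figure D4:**
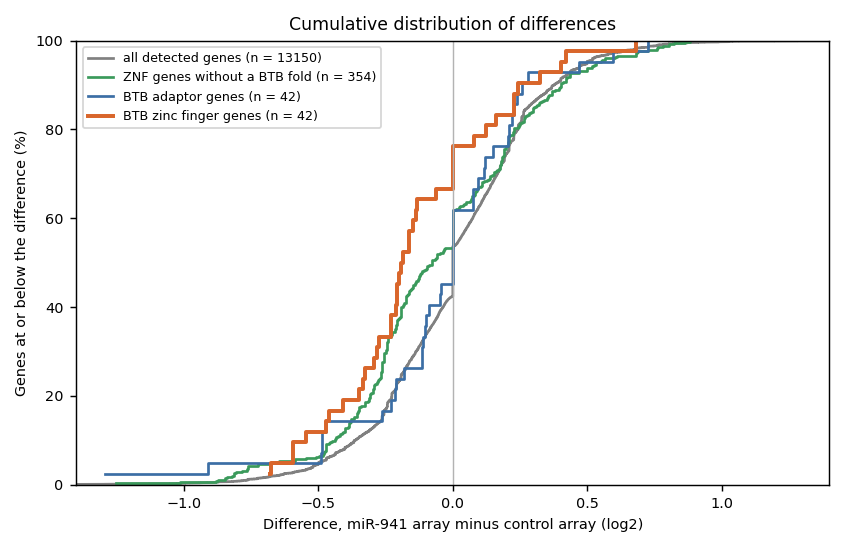
Cumulative share of genes (%) at or below a given difference (log2, miR-941 minus control) for the 42 detected BTB zinc finger genes, 42 BTB adaptor genes, 354 ZNF genes without a BTB fold and all 13150 detected genes; the axis leaves out the few genes beyond its ends. The BTB zinc finger curve crosses 50% at -0.19, the ZNF curve at -0.08 and the others at 0.00.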

How the data were processed

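The authors deposited 1 value per probe set, made with RMA according to the series' design text. Here the deposited values were read as log2. The submitters' processing notes also name affy and MAS5, without versions or roles. Log base, centring and detection calls are not given in the sources used here. A 16-bit reading would not reach the highest values, 13.6 and 13.7, on a natural log scale. Of 54675 probe sets, 41091 had 1 symbol in the platform annotation and entered the gene values, and 11808 (21.6%) held equal values on both arrays. The difference is the miR-941 value minus the control value. With 1 array per group no test was made and the number of arrays limits the precision.

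The members and lists were chosen with earlier results of these data known. All members are accounted for, with details for those past 1.5-fold, with at least 3 detected probe sets on the same side of 0, with the 5 brightest probe sets or next to the detection level, and the 2 highest and 2 lowest of the partner and BTB adaptor lists. Alternatives were the mean over probe sets, probe sets without the suffixes _x_at and _s_at, no filter or the 75th percentile of level, a loess trend removed (span 0.3), quantile normalization, a floor at the detection level, and other member lists. Scripts used Python 3.11.15, pandas 2.3.3 and statsmodels 0.14.6. A check of the code permuted the real differences among genes of similar level and added a fixed shift to randomly drawn genes. It required only that their median moved by that shift, and the counts were not checked.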

Additional observations from a re-analysis of the deposited data

How the results depend on the processing

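No paired analysis was possible because there is a single array a group, which also leaves no array to omit. The median of the detected members stayed below 0 in every alternative run, from -0.19 to -0.0698. It was -0.0938 with differences averaged over probe sets, where BCL6B (0.45), HIC2 (0.11) and ZBTB40 (0.12) turned higher, and -0.0698 on the second brightest probe set, an alternative chosen after seeing the data, where 50% of 20 members were lower. The cause was not tested. In the other alternatives 60.4% to 73.8% of members were lower. The share over all genes moved too: with no level filter 60.4% of members and 36.8% of all genes were lower, and with the loess trend removed or with quantile normalization, which leave no member equal, 73.8% of members were lower in both, beside 6570 of all 13150 genes (loess) and 48.0% of all genes (quantile normalization). ZBTB21 turned higher (0.12) without _x_at and _s_at probe sets. Members past 1.5-fold, 4 lower and 1 higher, fell to 2 and 0 with the filter at the 75th percentile, where fewer genes are counted, and 2 were lower with the loess trend removed or with quantile normalization, since PATZ1 and ZBTB1 lie just past that fold. Of all detected genes, 30 were 2-fold higher and 38 lower. Above the 75th percentile these became 4 and 7, and 387 and 378 at 1.5-fold. At 4-fold they were 0 and 1, and 18 were lower with differences averaged over probe sets. Of 268 values of single members under the other settings, 260 moved by less than 0.29, the within-gene SD over all genes, and 8 by more. All 8 came from settings that change the probe sets. Averaging moved 6 values and left 36, and leaving out _x_at and _s_at probe sets moved 2 and left 33. The 42 values with no level filter, the 23 above the 75th percentile and the 42 with the floor equalled the main ones. These repeated values say nothing about stability. No member past 1.5-fold changed direction in these settings, which left out the second brightest probe set. ZBTB49, ZBTB22, ZBTB1 and ZBTB7C have 1 detected probe set each, so a change of probe set could not turn them. PATZ1 was at -0.09 when averaged and has no value without _x_at and _s_at probe sets. On its second brightest probe set PATZ1 was higher by 0.22.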
